A study of Mus musculus with 80 samples.

Results

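Male mice of the hybrid strain B6C3F1 received prednisone (PRED), a synthetic glucocorticoid, at 25 ppm in the feed for 28 d, and liver RNA was measured on Illumina bead arrays. The 4 arrays of this group were compared with the 6 arrays of mice kept on control feed (0 ppm) for 28 d. Membership was read from the compound, dose and duration in the labels, which gave 10 of the 80 arrays in the series. Other groups enter only as comparators: 4 arrays of the same 25 ppm diet at 7 d, 6 arrays of feed control at 7 d, and 4 arrays of ethinyl estradiol (EE2) at 10 ppm in the feed for 28 d. The labels give no age and no genotype other than the strain, and nothing in them says whether a sample was 1 animal or a pool. No label states that the arrays of a group came from separate animals, so the p-values here reflect array-to-array spread alone, which may be technical.

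Prednisone has little activity of its own until the liver enzyme encoded by Hsd11b1 reduces it to prednisolone, which binds the glucocorticoid receptor (Nr3c1). The bound receptor enters the nucleus, switches on genes such as Fkbp5, whose product lowers the receptor's affinity for its ligand, and works together with cytokine-activated factors on acute phase genes. In liver, glucocorticoids are known for their part in glucose production, amino acid breakdown, lipid handling and the damping of inflammatory genes.

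Of the 18130 gene entries, 7735 to 8163 were detected on the PRED arrays and 8011 to 8718 on the control arrays, and 11352 genes were tested. The arrays of each group correlated with their own group at a mean r of 0.988 or more for PRED and 0.978 or more for control. The lowest was control array 1. Control array 2 stood apart in acute phase genes. Each sample name holds a number and a letter that no label explains. PRED arrays 2 and 4 share a number, as do control arrays 1, 3 and 5, but the letter differs between them. Control array 4 shares its number with a feed control array at 7 d, again with another letter. The 10 arrays lay on 7 chips, 2 of which held both groups. Hepatocyte markers were bright in both groups: Apoa1 averaged 14230 with PRED and 14340 in control, and Cyp2e1 14680 and 14760. The exception was the albumin entry, Alb, at 180 and 206, close to the array medians of about 106, which are background. None of the 9 hepatocyte markers tested passed the threshold in either direction in the limma fit, and 0 had an unadjusted p under 0.05. Among all 11352 genes tested, 2685 had an unadjusted p under 0.05.

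PRED changed 1123 of the 11352 genes (9.89%) at an adjusted p under 0.05, with 527 rises (4.64%) and 596 falls (5.25%). The p-values came from 1 limma fit over all arrays with Benjamini-Hochberg adjustment, and every log2 change is on the log2(intensity + 16) scale. Of the 1123, 81 rose and 74 fell at least 2-fold, and 618 changed by under 0.5 on the log2 scale. The median log2 change over all genes tested was -4.97e-05. Arrays of the 2 groups did not overlap in 1476 genes (13%). Averaging arrays that share a name number left 530 genes past the threshold, 527 of them among the 1123. In whole liver, fewer cells of a type and less RNA per cell cannot be told apart.

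**Figure D1:**
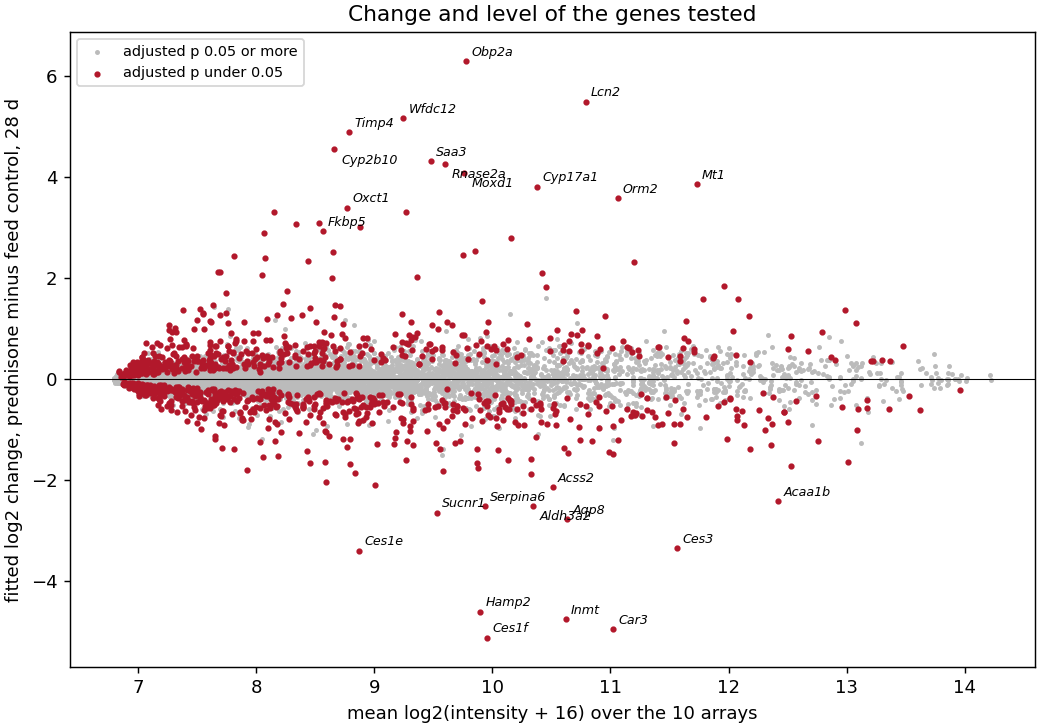
Fitted log2 change (vertical axis, prednisone minus feed control at 28 d, on the log2(intensity + 16) scale) against the mean level over the 10 arrays (horizontal axis, log2) for the 11352 genes tested, with the 1123 past the threshold in red. Obp2a is at 6.30 and Ces1f, which was at background with PRED, at -5.13, and most of the 1123 lie close to 0.

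The 12 largest rises, picked for groups that did not overlap, included lipocalin and protease inhibitor genes near background in control and bright with PRED. Lcn2, also a lipocalin, is given with the acute phase genes. Obp2a (deposited as Lcn13) encodes a small lipocalin that carries lipophilic ligands. Its intensities were 16980, 13300, 12080 and 7702 on the PRED arrays and 107 to 181 (median 134) on the control arrays. The groups did not overlap, and the log2 change was 6.30 (SE 0.38, adjusted p = 2.02e-21). Wfdc12, a gene of the whey acidic protein family of protease inhibitors, read 3922, 5039, 11990 and 3129 with PRED and 108 to 159 (median 120) in control, a log2 change of 5.18 (SE 0.55, adjusted p = 5.84e-11). Timp4 encodes an inhibitor of matrix metalloproteinases. It read 3789, 3162, 3663 and 2940 with PRED and was detected on none of the 6 control arrays, so that it was at least 33.3-fold higher (adjusted p = 3.63e-24).

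Among genes of drug and steroid metabolism, Cyp2b10 and Cyp17a1 rose most. Cyp2b10, the classical target of the nuclear receptor CAR, read 2114, 2405, 3565 and 2824 with PRED and was detected on no control array, which makes it at least 26.4-fold higher (adjusted p = 1.25e-43). Cyp17a1, the hydroxylase and lyase on the way from pregnenolone to androgens, read 6464, 5965, 5453 and 8579 against 356 to 598 (median 450). Its log2 change was 3.82 (SE 0.36, adjusted p = 1.22e-12), without overlap, as the naming rule required. In the fixed list of CAR and PXR targets, 3 of 14 rose and 1 fell, beside 4.64% rises and 5.25% falls among all genes, with a median of -0.07. Beside Cyp2b10 these were Por, the electron donor of microsomal P450 enzymes (1.27, SE 0.30, adjusted p = 0.00177), and Cyp3a13 (1.09, SE 0.25, adjusted p = 0.0014). Cyp2c55 fell and was detected on no PRED array, at least 1.52-fold lower (adjusted p = 7.26e-05). Without control array 2 a further member fell, making 2. Cyp3a11, the main mouse P450 of the Cyp3a type and a standard PXR target, was not past the threshold (-1.08, adjusted p = 0.078). The receptor genes Nr1i3 (CAR) and Nr1i2 (PXR) had changes of 0.09 and -0.06, adjusted p = 0.853 and 0.884.

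Beside Cyp2b10, its neighbour in the gene family Cyp2b23 read 480, 582, 676 and 713 with PRED and was detected on no control array, at least 5.97-fold higher (adjusted p = 4.05e-10). Cyp2b9 and Cyp2b13, members known to be higher in female than in male mice, were detected on no PRED array. Cyp2b9 was detected on 2 control arrays and Cyp2b13 on none. At this background level neither was past the threshold (limma adjusted p = 0.900 and 0.945). Family members were picked by symbol after their values had been seen, and closely similar copies may share probe signal.

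Further large rises fell into no single role. Rnase2a (deposited as Ear11), a ribonuclease of the eosinophil-associated family, read 4457, 4328, 6852 and 3279 against 136 to 429 (median 185). Its log2 change was 4.27 (SE 0.41, adjusted p = 1.84e-12). Oxct1 encodes the mitochondrial enzyme that uses ketone bodies and is kept low in normal liver. It read 1158, 1843, 2216 and 2080 against 138 to 163 (median 155), a log2 change of 3.40 (SE 0.21, adjusted p = 6.92e-21). Moxd1, a monooxygenase-like gene higher in male than in female liver, read 4571, 4662, 4535 and 5242 against 114 to 574 (median 279), 4.09 on the log2 scale (SE 0.62, adjusted p = 1.37e-06). In all 3 genes every PRED array lay above every control array, as the naming rule required.

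**Figure D2:**
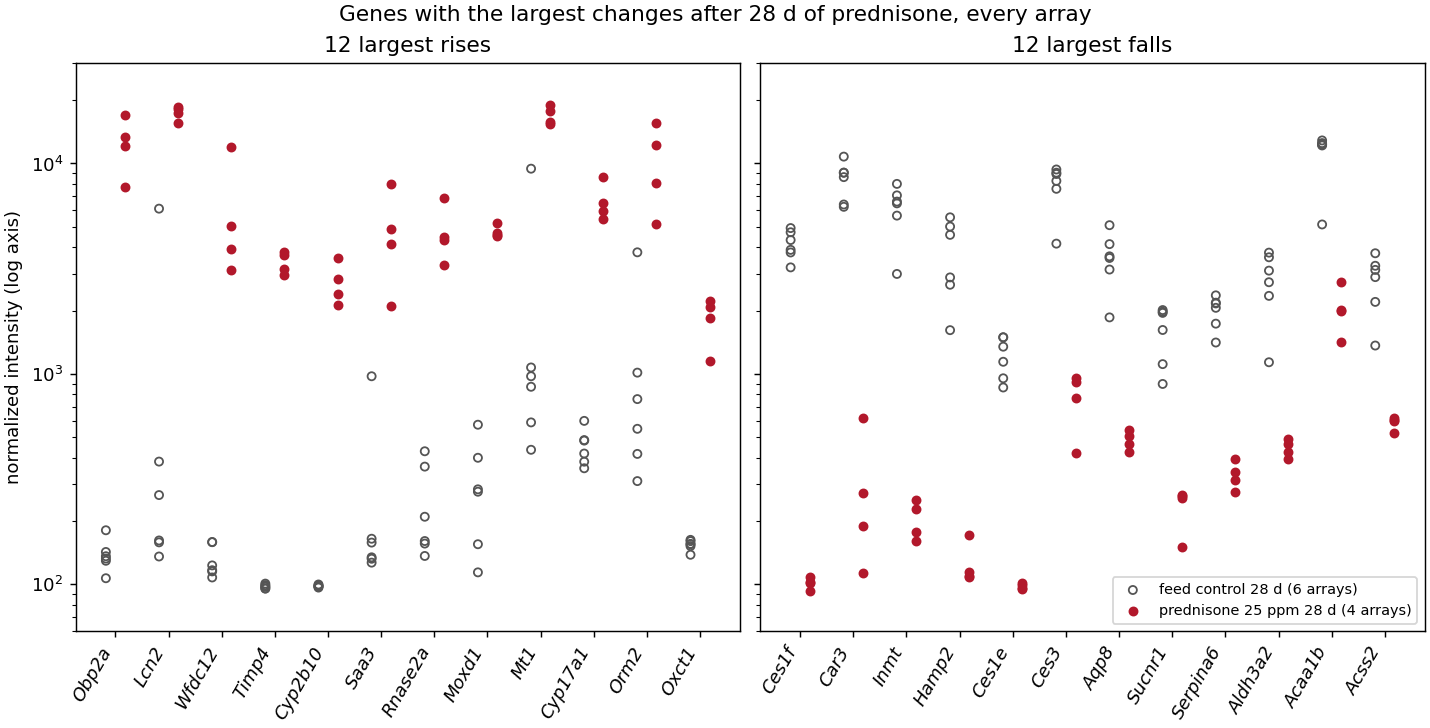
Normalized intensity (log axis) of each of the 4 prednisone arrays (filled) and the 6 feed control arrays (open) for the 12 largest rises and the 12 largest falls. The groups do not overlap in any of the 24 genes, as the naming rule required, and control array 2 is the open point closest to the filled ones in Lcn2, Saa3, Mt1 and Orm2.

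Among known targets of the glucocorticoid receptor, Fkbp5 rose on every array. It read 1433, 982, 1285 and 1419 with PRED and 131 to 181 (median 145) in control, a log2 change of 2.94 (SE 0.30, adjusted p = 1.59e-11). Of 20 listed targets tested, 4 rose and 1 fell, beside 4.64% rises and 5.25% falls among all genes, with a median log2 change of 0.27. With arrays of a number averaged 3 rose. Cdkn1a, which encodes the cell cycle inhibitor p21, read 919, 591, 376 and 703 against 141 to 223 (median 165), 1.75 on the log2 scale (SE 0.27, adjusted p = 2.51e-06). Ddit4, an inhibitor of mTORC1 signalling, rose by 1.22 (SE 0.35, adjusted p = 0.0129), but its groups overlapped, with 407 on PRED array 3 and 421 on the highest control. Its call was lost without PRED array 1, where it read 1317. Lcn2 is described with the acute phase genes. The fall was Tsc22d1, detected on none of the 10 arrays, for which no fold is given; its call was lost without PRED array 3 or 4 or control array 1, 4, 5 or 6, and with chip or the number as a block, the number averaged or both control groups as the base. Without control array 2 the list had 2 falls.

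Several standard targets did not pass the threshold. Tsc22d3 (GILZ), a glucocorticoid-induced repressor of inflammatory transcription, read 1662, 1320, 730 and 1234 against 703 to 1232 (median 862). Its change was 0.36 (SE 0.28, adjusted p = 0.467), and it was past the threshold with both control groups as the base (0.74, adjusted p = 0.0471), a base added after the values were seen. Per1, a clock gene with a glucocorticoid-responsive promoter, changed by 0.19 (adjusted p = 0.643), the kinase gene Sgk1 by -0.73 (adjusted p = 0.0847), and Pck1, the gluconeogenic enzyme phosphoenolpyruvate carboxykinase, by 0.37 (adjusted p = 0.306). Tat, the tyrosine aminotransferase long used as a readout of glucocorticoids in liver, was detected on no PRED array and 2 of 6 control arrays, at background on this array.

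Genes of steroid activation and transport divided. Serpina6 encodes corticosteroid-binding globulin, the plasma carrier of corticosterone. It read 393, 341, 273 and 314 with PRED and 1410 to 2362 (median 2111) in control, a log2 change of -2.52 (SE 0.39, adjusted p = 1.40e-06). The groups did not overlap, as the rule for the largest falls required. Hsd11b1 read 6243, 7168, 6632 and 6864, all below the lowest of the controls, 7355 to 9371 (median 8778), yet the change of -0.37 (SE 0.20) was not past the threshold (adjusted p = 0.258). Nr3c1 itself was detected on no PRED array and 1 control array. In the list of 10 genes of glucocorticoid activation, transport and feedback, 1 rose (Cyp3a13) and 2 fell, beside 4.64% rises and 5.25% falls among all genes. The second fall was Srd5a2, a steroid reductase near background (-0.19, adjusted p = 0.00248).

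Acute phase genes, which encode plasma proteins that the liver secretes during inflammation, rose as a group. Of 21 tested members 13 rose and none fell, with a median log2 change of 0.85, beside 4.64% rises among all genes tested. The rises were Saa1 to Saa4, Orm2, Lcn2, Lbp, Apcs, Crp, Itih3, Itih4, Serpina3n and Serpina3m. Haptoglobin (Hp) and Orm1 had changes of 0.26 and 0.50 and were not past the threshold (adjusted p = 0.0539 and 0.0614), and fibrinogen Fga changed by -0.01 (adjusted p = 0.943). With arrays of a shared name number averaged, 9 of the 21 rose. Without control array 2, 16 rose.

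Lcn2, a lipocalin that withholds iron from bacteria, read 17460, 18160, 15600 and 18580 with PRED. The controls lay between 136 and 6100 (median 214), control array 2 giving the 6100 and the other 5 reading 136 to 383. The log2 change was 5.50 (SE 1.08, adjusted p = 0.00018), and 6.30 without control array 2. Saa3, a serum amyloid A of macrophages and liver, read 8029, 4145, 2098 and 4859 against 127 to 975 (median 146), a log2 change of 4.32 (SE 1.02, adjusted p = 0.00216). Saa1 read 4700, 2334, 1873 and 1685 against 120 to 2507 (median 141), 3.31 on the log2 scale (SE 0.74, adjusted p = 0.00104). Its groups overlapped through control array 2, at 2507. Saa2 likewise read 2172, 2293, 1036 and 1386 against 115 to 1397 (3.02, SE 0.62, adjusted p = 0.000342), again with only control array 2 inside the PRED range. Saa4, the member made constitutively, rose from 2180 to 4409 (median 2628) to between 8103 and 8685, a log2 change of 1.59 (SE 0.33, adjusted p = 0.000384).

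Orm2, an alpha-1 acid glycoprotein that binds drugs in plasma, read 15530, 8069, 5167 and 12250 against 310 to 3783 (median 654), 3.58 on the log2 scale (SE 0.90, adjusted p = 0.00406). Lbp, the lipopolysaccharide-binding protein, rose by 2.10 (SE 0.40, adjusted p = 8.77e-05). Its control array 2 (2096) lay above PRED array 3 (2043). The protease inhibitor gene Serpina3n read 14560, 14640, 12330 and 15770 against 4448 to 8264 (median 5215), with no overlap (1.36, SE 0.20, adjusted p = 4.59e-07). Apcs, serum amyloid P, rose by 1.58 (SE 0.31, adjusted p = 0.000165) from 1145 to 4956 in control to 4956 to 8264.

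The windows around the start sites of 4 acute phase genes are shown because each holds the sequence bound by C/EBP factors, known regulators of this class. The motif was not counted over the whole acute phase list, so its share there is not known. The windows come from RefSeq (GRCm38.p6), run from 250 bases before to 50 after the start, and are printed 5′ to 3′ on the gene's strand with the match to TTGCNNAA, searched on both strands, in capitals. They are Saa1 at chr7:46742931-46743230 (minus strand), Saa3 at chr7:46715627-46715926 (minus), Orm2 at chr4:63362199-63362498 (plus) and Lcn2 at chr2:32387690-32387989 (minus).
Saa1: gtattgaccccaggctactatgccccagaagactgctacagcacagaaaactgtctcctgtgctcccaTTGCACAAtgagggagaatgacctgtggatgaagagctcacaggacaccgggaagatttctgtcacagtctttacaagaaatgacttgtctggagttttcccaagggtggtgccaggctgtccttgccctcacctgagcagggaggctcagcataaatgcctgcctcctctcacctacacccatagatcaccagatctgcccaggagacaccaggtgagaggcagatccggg
Saa3: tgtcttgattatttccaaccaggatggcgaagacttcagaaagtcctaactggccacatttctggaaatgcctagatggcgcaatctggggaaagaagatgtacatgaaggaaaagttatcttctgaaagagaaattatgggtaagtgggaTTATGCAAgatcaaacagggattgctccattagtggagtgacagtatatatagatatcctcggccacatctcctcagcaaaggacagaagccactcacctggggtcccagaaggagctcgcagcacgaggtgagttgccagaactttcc
Orm2: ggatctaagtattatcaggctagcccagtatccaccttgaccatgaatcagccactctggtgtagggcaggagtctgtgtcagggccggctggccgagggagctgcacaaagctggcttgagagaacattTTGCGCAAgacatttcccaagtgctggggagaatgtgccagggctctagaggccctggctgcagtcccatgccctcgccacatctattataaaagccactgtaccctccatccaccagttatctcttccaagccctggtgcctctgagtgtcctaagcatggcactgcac
Lcn2: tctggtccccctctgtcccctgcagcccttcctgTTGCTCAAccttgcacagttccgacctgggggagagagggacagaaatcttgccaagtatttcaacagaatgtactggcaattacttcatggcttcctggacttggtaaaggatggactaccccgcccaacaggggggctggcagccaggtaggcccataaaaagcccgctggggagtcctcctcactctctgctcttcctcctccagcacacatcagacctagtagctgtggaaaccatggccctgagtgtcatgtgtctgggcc
Of all 32851 windows in the table, 10.8% hold this motif. Among the 12 largest rises, 11 genes had a window and 6 held it (Lcn2, Wfdc12, Cyp2b10, Saa3, Rnase2a and Orm2). Of the 12 largest falls, 8 genes had a window and none held it. A gene was counted if any of its windows matched, so these counts are not on the footing of the share of single windows. The glucocorticoid receptor's hexamer AGAACA was in the window of Orm2 alone among the rises and of Hamp2 among the falls, beside 19% of all windows, and the inverted repeat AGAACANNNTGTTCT was in none of these windows. These matches are descriptions of letters near the start site, and receptor binding was not measured here.

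The feed controls at 7 d and 28 d were compared in the same genes, a comparison added after seeing the data. At 7 d, Lcn2 ran from 2119 to 16270 (median 5075), Saa1 from 924 to 1706 and Orm2 from 2281 to 13490, while 5 of the 6 controls at 28 d had Saa1 between 120 and 162. Over all genes, 116 (1.02%) differed between the 28 d and 7 d feed controls. Lcn2 was among them (-3.80, SE 0.97, adjusted p = 0.0346) and was the only such gene of the 21. With the mean of both control groups as the base, a choice made after seeing these values, 12 of the 21 rose and the median was 0.78. Orm2 was then no longer past the threshold (2.19, adjusted p = 0.0751), whereas Lcn2 (3.60, adjusted p = 0.00903) and Saa3 (3.30, adjusted p = 0.0117) were.

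**Figure D3:**
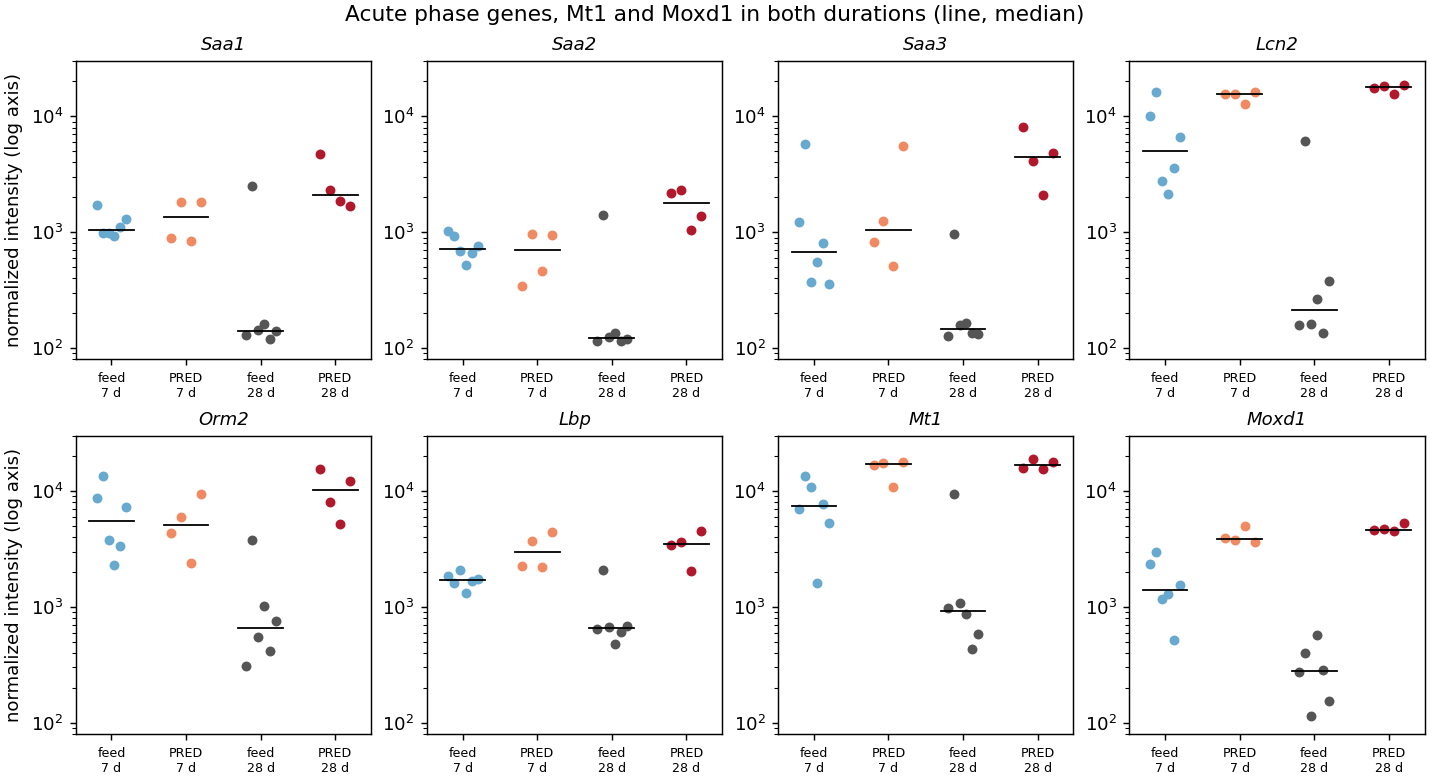
Normalized intensity (log axis) of 6 acute phase genes, Mt1 and Moxd1 on every array of feed control and prednisone (PRED, 25 ppm) at 7 d and 28 d; lines mark group medians. At 28 d, 5 of 6 feed controls are low in Saa1, at 120 to 162, with control array 2 at 2507, whereas the 7 d feed controls lie between 924 and 1706.

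Neutrophil markers were examined beside Lcn2, which neutrophils also make. None of 7 passed the threshold in the limma fit, and 0 had an unadjusted p under 0.05, beside 2685 of the 11352 genes tested. Their summed intensity was 824 to 1458 with PRED and 719 to 1172 in control. Control array 2 gave the 1172, and every other control read 768.5 or less, below all PRED arrays. Ngp, Camp and Ltf averaged 96.5 to 104 in both groups, at background. S100a8 had a change of 0.86 (adjusted p = 0.303). The part of such cells in the Lcn2 result was not tested.

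Metallothioneins, small proteins that bind zinc and copper, rose together. Mt1 read 15770, 19040, 15380 and 17850 with PRED, close to the top of the array's range, against 436 to 9447 (median 922) in control, a log2 change of 3.87 (SE 0.65, adjusted p = 1.34e-05). Control array 2 gave the 9447. Mt2 read 846, 281, 303 and 421 against 107 to 153 (median 112), 1.70 on the log2 scale (SE 0.30, adjusted p = 3.59e-05), without overlap. Of 8 genes of metallothioneins and zinc transport, 3 rose and 1 fell, beside 4.64% rises and 5.25% falls among all genes. The third rise was the importer gene Slc39a14, from 113 to 135 in control to 134 to 182 (0.33, SE 0.06, adjusted p = 7.65e-05). The fall was Slc39a8, at background with PRED, whose call was lost without PRED array 1 or 2. Like Lcn2, Mt1 and Moxd1 were lower in the 28 d than in the 7 d feed controls (-2.46 and -2.37, adjusted p = 0.0267 and 0.0249). Both remained past the threshold with both control groups as the base (2.64 and 2.91, adjusted p = 0.00107 and 0.000127).

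The windows of both metallothionein genes are shown for the core of the metal response element, the site of the zinc sensor MTF-1, in capitals (TGCACNC or TGCGCNC, both strands). Mt1 lies at chr8:94178839-94179138 and Mt2 at chr8:94172368-94172667, both on the plus strand.
Mt1: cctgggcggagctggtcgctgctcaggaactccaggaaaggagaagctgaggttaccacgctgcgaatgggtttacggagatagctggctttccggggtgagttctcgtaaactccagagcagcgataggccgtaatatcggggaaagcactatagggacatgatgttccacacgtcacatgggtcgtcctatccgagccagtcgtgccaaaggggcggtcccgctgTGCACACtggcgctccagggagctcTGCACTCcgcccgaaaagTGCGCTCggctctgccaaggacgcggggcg
Mt2: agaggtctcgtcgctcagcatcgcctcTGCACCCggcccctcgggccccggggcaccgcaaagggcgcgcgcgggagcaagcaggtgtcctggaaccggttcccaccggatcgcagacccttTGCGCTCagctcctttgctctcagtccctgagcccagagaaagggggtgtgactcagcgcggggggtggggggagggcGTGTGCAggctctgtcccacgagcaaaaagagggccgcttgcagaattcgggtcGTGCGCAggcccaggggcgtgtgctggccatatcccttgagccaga
The Mt1 window holds 3 matches and the Mt2 window 4. At least 1 match occurs in 25.7% of all windows, and neither window holds AGAACA.

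The largest falls were in enzymes of ester, carbon dioxide and methyl group metabolism. Ces1f (deposited as AU018778), a carboxylesterase of the endoplasmic reticulum, read 93.2, 103, 102 and 108 with PRED, at background and detected on 1 of 4 arrays, against 3208 to 4933 (median 4107). Its fitted log2 change was -5.13 (SE 0.59, adjusted p = 6.83e-10), a size set by the background on the 3 PRED arrays where it was not detected. Car3, a carbonic anhydrase abundant in male liver and in fat, read 114, 617, 272 and 188 against 6224 to 10780 (median 8828), -4.96 on the log2 scale (SE 0.55, adjusted p = 2.59e-10). Inmt, an amine methyltransferase, read 161, 250, 228 and 176 against 2986 to 7999 (median 6528), -4.76 on the log2 scale (SE 0.49, adjusted p = 1.59e-11). No PRED array came near a control in these genes, which the naming rule had picked for groups without overlap.

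Other carboxylesterases fell with Ces1f. Ces1e (deposited as Es22) was detected on no PRED array and read 862 to 1493 (median 1245) in control, at least 11.7-fold lower (adjusted p = 1.33e-09). The entry kept under its deposited symbol Ces3 read 423, 919, 958 and 766 against 4160 to 9365 (-3.35, SE 0.48, adjusted p = 2.72e-07). Of 10 carboxylesterase entries tested, 7 fell and none rose, beside 5.25% falls among all genes. Ces1c fell by 1.18 and Ces1b by 1.45 on the log2 scale. Ces3b, at 3077 to 4040 with PRED and 2695 to 4154 in control, had a change of 0.13 (adjusted p = 0.759). The family was picked after its values had been seen.

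Hamp2, the mouse paralog of hepcidin, read 110, 114, 172 and 109 against 1614 to 5548 (median 3728), a log2 change of -4.61 (SE 0.68, adjusted p = 5.32e-07). Hamp, which encodes the iron hormone hepcidin itself, ran from 6189 to 9499 with PRED and from 3753 to 8643 in control and was not past the threshold (0.31, adjusted p = 0.600). The water and peroxide channel gene Aqp8 read 504, 427, 540 and 465 against 1856 to 5091 (-2.78, SE 0.49, adjusted p = 3.09e-05). Sucnr1, the receptor for succinate, read 151, 262, 267 and 257 against 896 to 2011 (-2.65, SE 0.38, adjusted p = 4.20e-07). None of the 3 falls showed overlap between the groups, as the naming rule required.

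Fatty acid synthesis genes were lower with PRED. Of 15 tested, 10 fell and none rose, the median log2 change was -0.84, and all 15 fitted changes were below 0, beside 5.25% falls among all genes. Elovl5, an elongase of polyunsaturated fatty acids, read 4536, 4409, 3400 and 4252 against 10150 to 15050 (median 13790), -1.65 on the log2 scale (SE 0.21, adjusted p = 2.39e-08). Acly, which makes cytosolic acetyl-CoA from citrate, read 3879, 2470, 2641 and 2687 against 4495 to 12960 (median 10770), with control array 2 the lowest control (-1.72, SE 0.32, adjusted p = 7.33e-05). The desaturase gene Fads2 read 522, 569, 550 and 595 against 1114 to 2359 (-1.61, SE 0.25, adjusted p = 1.54e-06). Gpam, the acyltransferase that starts triglyceride synthesis, read 128, 129, 133 and 128 against 139 to 404 (-0.91, SE 0.13, adjusted p = 4.81e-07). All 4 genes were lower on every PRED array than on any control array.

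Elovl6, Me1, Fads1, Fasn, Insig1 and Srebf1 also fell, by 1.58, 1.06, 0.56, 0.54 and 0.39 for the first 5. Srebf1, the master regulator of the pathway, was detected on 1 PRED array and no control array, so no fold is given. Scd1, the stearoyl-CoA desaturase, had a change of -1.27 that was not past the threshold (adjusted p = 0.245). Acss2, which makes acetyl-CoA from acetate and is not in the list, read 595, 603, 620 and 523 (detected on 3 arrays) against 1364 to 3744 (-2.14, SE 0.29, adjusted p = 8.20e-08). With both control groups as the base, 5 of the 15 fell and the median was -0.57. With arrays of a shared number averaged, 4 fell. Feed controls at 28 d were higher than at 7 d in 3 of the 15, Gpam among them (0.68, adjusted p = 0.00133).

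In cholesterol synthesis 4 of 15 genes fell and none rose, with a median of -0.32, beside 5.25% falls among all genes. Sc5d, a late step of the pathway, read 243, 381, 269 and 277 against 510 to 1127 (-1.29, SE 0.19, adjusted p = 3.99e-07). Lss, Pmvk and Nsdhl fell by 0.83, 0.81 and 0.55 (adjusted p = 0.0154, 0.00619 and 0.0135). Averaging arrays of a shared number gave 2 falls, as did the base of both control groups. Acaa1b, a peroxisomal thiolase, was the only one of 16 PPAR-alpha targets and fatty acid oxidation genes past the threshold, beside 9.89% of all genes. It read 1422, 2724, 1988 and 2018 against 5131 to 12870 (median 12330), -2.43 on the log2 scale (SE 0.52, adjusted p = 0.000592). Without control array 2, which gave the 5131, 3 of the 16 fell, and 6 fell in a fit of only the groups compared. Of the 16 fitted changes 15 were below 0, with a median of -0.31. Their summed intensity, Acaa1b included, ran from 23050 to 30710 with PRED and from 32050 to 46510 in control, without overlap. Aldh3a2, which oxidises fatty aldehydes, read 392, 490, 463 and 424 against 1136 to 3770 (-2.52, SE 0.40, adjusted p = 4.57e-06).

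For glucose and amino acid genes the counts of calls depended on the base, the block and single arrays. Of 16 genes of gluconeogenesis and glycogen, Foxo1 rose (0.41, adjusted p = 0.0408) and Pklr, the liver pyruvate kinase, fell (-0.88, adjusted p = 0.0334, detected on 2 of 4 PRED and 3 of 6 control arrays). A count of 1 in each direction is near the shares among all genes, 4.64% rises and 5.25% falls. The Foxo1 call was lost on leaving out any 1 array other than PRED array 3, and the Pklr call on leaving out any 1 of 6, the control arrays 1, 3 and 5 and the PRED arrays 1, 2 and 4. Without control array 2 there were 3 falls and no rise, with chip as a fixed block 1 fall and no rise, and with the number blocked or averaged neither. With both control groups as the base 2 rose and none fell. At 7 d 4 rose and none fell, beside 373 rises and 309 falls among all 11352 genes at 7 d. Of 19 amino acid and urea cycle genes, 4 fell and none rose, beside 5.25% falls and 4.64% rises among all genes: ornithine aminotransferase Oat (2677, 2645, 2052 and 3096 against 4956 to 9000, -1.39, SE 0.29, adjusted p = 0.00051), Agxt (-0.89, SE 0.18, adjusted p = 0.000263), Gls2 (-0.74, adjusted p = 0.014) and Hal (-0.59, adjusted p = 0.0453). Without PRED array 2, 2 fell, and without PRED array 3, 1 rose. With the number blocked or averaged 2 fell, with chip as a fixed block 2 fell and 1 rose, and with both control groups as the base 3 fell and 1 rose. The urea cycle genes Cps1, Ass1 and Arg1 changed by -0.49, -0.24 and 0.25, none past the threshold (adjusted p = 0.325, 0.346 and 0.0695).

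The growth hormone and IGF axis held 5 falls and no rise among 16 genes, beside 5.25% falls among all genes, with a median of -0.10. There were 3 falls with chip as a fixed block and 2 with the number blocked or averaged. Ghr, the growth hormone receptor, read 1388, 1296, 1376 and 1082 against 2496 to 3495 (median 2981), -1.20 on the log2 scale (SE 0.17, adjusted p = 2.46e-07), without overlap. Prlr, the prolactin receptor, was detected on no PRED array and on 4 of 6 control arrays, at least 2.45-fold lower (adjusted p = 4.32e-07). Igfals (-0.76), Igfbp3 (-0.21) and Jak2 (-0.16) were closer to the threshold, at adjusted p = 0.037, 0.0315 and 0.032. Leaving out any 1 array other than control 2 or 4 reduced the 5 falls to 3, or to 2 without control array 1. Igf1 was not past the threshold (0.24, adjusted p = 0.418).

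Of 21 genes higher in male liver, 3 rose and 1 fell, beside 4.64% rises and 5.25% falls among all genes. With Moxd1, the rises were Selenbp2 (4467, 5423, 5259 and 5423 against 1591 to 3144, 1.15, SE 0.28, adjusted p = 0.0028) and Cyp7b1, an oxysterol hydroxylase (0.65, SE 0.17, adjusted p = 0.00465). Cyp2u1 was the fall (-0.68, SE 0.11, adjusted p = 7.20e-06), and 2 fell without control array 2. Among 11 genes higher in female liver, Cyp17a1 alone was past the threshold, with 1 fall added without control array 2 or 4. The other 10 averaged 96 to 123 in either group, at or near background, so a fall in them could hardly be seen. The major urinary protein genes Mup1 and Mup3, markers of the male growth hormone pattern, averaged 14090 and 13330 with PRED and changed by 0.02 and -0.02 (adjusted p = 0.952 and 0.967). All 6 Mup genes tested had an adjusted p of 0.106 or more, and the fitted changes of Mup2, Mup4, Mup5 and Mup6 were 0.20, 0.86, 0.79 and 0.34. Mup4 alone did not overlap between the groups, at 1191 to 1853 with PRED and 411 to 1113 in control (detected on 2 PRED arrays and 1 control array).

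Detoxification and bile acid genes had several clear falls. Ephx1, microsomal epoxide hydrolase, read 1123, 1223, 1197 and 914 against 1753 to 4448 (-1.48, SE 0.23, adjusted p = 2.51e-06). Abcc3, an exporter of bile acids and conjugates into blood, read 166, 158, 162 and 154 against 417 to 666 (-1.66, SE 0.27, adjusted p = 6.24e-06). With Gstm1 (-1.16) and Me1 (-1.06) they made 4 falls and no rise among 14 NRF2 targets, beside 5.25% falls among all genes. Gclm and Hmox1 changed by -0.12 and 0.08 (limma adjusted p = 0.641 and 0.871). Nqo1 was at background, detected on no PRED array and 1 control array (adjusted p = 0.836). Without control array 2, 6 of the 14 fell. Of 18 bile acid genes, Cyp7b1 rose and Abcc3 and Hsd3b7 (-0.59, adjusted p = 0.00451) fell, beside 4.64% rises and 5.25% falls among all genes. Cyp7a1, the rate-limiting enzyme of the classical pathway, changed by 0.03 (adjusted p = 0.989).

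**Figure D4:**
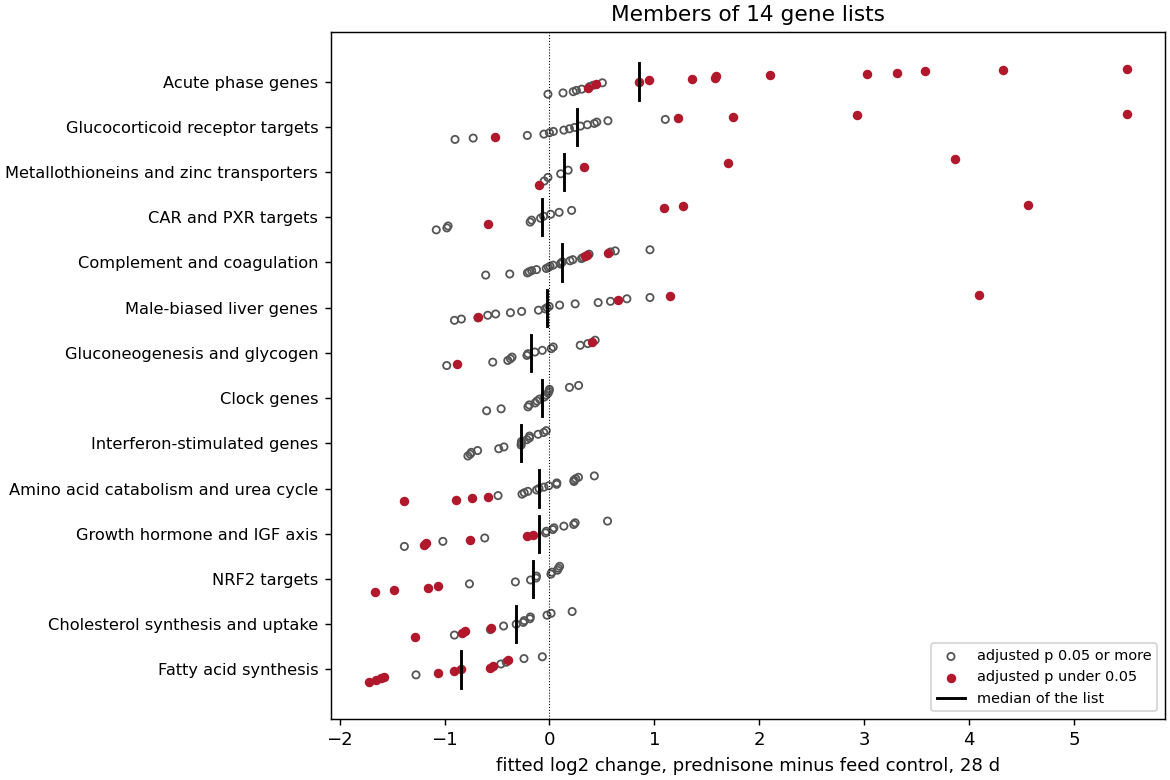
Fitted log2 change at 28 d (horizontal axis) of each tested member of 14 gene lists; red points passed an adjusted p of 0.05, open points did not, and the bar is the list's median. The acute phase list has 13 red points to the right of 0 and none to the left, and the fatty acid synthesis list has 10 to the left and none to the right.

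Cell cycle, stress and coagulation lists are read beside the 9.89% of all genes past the threshold. Ccnd1, cyclin D1, read 169, 161, 144 and 147 against 337 to 433 (median 396), a log2 change of -1.24 (SE 0.27, adjusted p = 0.000622), and with the rise of Cdkn1a made the 2 calls among 12 cell cycle genes. Asns, asparagine synthetase and an ATF4 target, was detected on 2 PRED arrays and no control array, at least 2.64-fold higher (adjusted p = 6.12e-05), the single call among 17 ER stress and ATF4 genes. Without PRED array 2, or control array 1 or 2, there were 2. Of 24 complement and coagulation genes F9, C3 and F2 rose, by 0.56, 0.36 and 0.34 (adjusted p = 0.000397, 0.0162 and 0.0496). These 3 rises stand beside 4.64% among all genes. Without PRED array 2, or with the number blocked or averaged, 1 of the list rose, and without control array 4, 1 fell. None of 14 clock genes (0 at an unadjusted limma p under 0.05) and 1 of 12 lipid droplet genes (Fitm1, detected on no PRED array, at least 1.24-fold lower, adjusted p = 0.000775) passed. An unadjusted p under 0.05 was found in 2685 of the 11352 genes tested.

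Interferon-stimulated and MHC class II genes were lower with PRED in their summed intensity, with few single genes past the threshold, whereas chemokine and inflammatory genes were not lower. Summed interferon-stimulated genes ran from 2405 to 2763 with PRED and from 2890 to 3903 in control, and summed MHC class II genes from 1277 to 1559 and from 1971 to 3654, so the groups did not overlap in either sum. Single genes did not overlap in 8 of the 15 interferon-stimulated and 6 of the 8 MHC class II genes, beside 13% of all genes. None of the 15 interferon-stimulated genes passed the threshold, although all 15 fitted changes were below 0, the median was -0.27 and 7 had an unadjusted limma p under 0.05. Such a p was found in 2685 of the 11352 genes tested. Leaving out PRED array 2 or 4 or control array 4 gave 1 fall each, chip as a fixed block 2, both control groups as the base 4, and a fit of only the groups compared 9. H2-Ea was the single fall among 8 MHC class II genes (-0.52, adjusted p = 0.0282), detected on 2 PRED arrays, and its call was lost without PRED array 1, 2 or 4 or control array 6. The list had 0 falls with chip as a fixed block or arrays of a number averaged and 6 in a fit of only the groups compared. The list's median was -0.43, and Cd74, the invariant chain, had -1.11 (adjusted p = 0.0977). Summed chemokine and inflammatory genes ran from 6400 to 10920 with PRED and from 5362 to 8808 in control. Of these 20 genes, 10 fitted changes were above 0 and 10 below, with a median of 0.0006. Only Il1r1 was past the threshold, as a rise (0.19, SE 0.04, limma adjusted p = 0.000972), detected on 1 array in each group.

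Markers of cell types other than hepatocytes gave 5 calls among 64 tested (7.81%), near the 9.89% among all genes. None of 11 macrophage and Kupffer cell markers and none of 8 T and NK cell markers passed in the limma fit, with 1 and 0 at an unadjusted p under 0.05. Of all 11352 genes tested, 2685 had such a p. Without control array 4 or 6, 1 macrophage marker rose. Summed macrophage markers ran from 3693 to 4348 with PRED and from 3558 to 5842 in control. The T and NK cell markers averaged 98 to 109, at background, in both groups. Of 10 endothelial markers 1 rose, the scavenger receptor gene Stab2, which read 795, 945, 1076 and 830 against 420 to 606 (0.84, SE 0.17, adjusted p = 0.000348), and 2 rose without PRED array 1. Lrat, the retinol-storing enzyme of stellate cells, read 146, 156, 182 and 168 against 255 to 379 (-0.79, SE 0.16, adjusted p = 0.000182), the single call among 9 stellate and fibroblast markers. Mzb1 (B and plasma cell, 0.28, adjusted p = 0.000695), Cldn7 (cholangiocyte, 0.16, adjusted p = 0.0151) and Cela1 (pancreatic acinar, -0.91, adjusted p = 0.0139) were the only other calls among the marker lists. The Cldn7 call was lost without PRED array 3 and with chip as a fixed block, the Cela1 call without PRED array 1 or 4, and both with arrays of a number averaged. Adipocyte markers Cfd and Lep averaged 102 to 106 in both groups.

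The same diet at 7 d, measured on other arrays with other controls, answered whether the changes were present early. At 7 d, 682 genes (6.01%) were past the threshold. Of the 1123 calls at 28 d, 261 were called with the same sign at 7 d, which is 23.2% of the 28 d calls and 38.3% of the 7 d calls, and 3 were called with opposite signs. Fitted changes had the same sign at 7 d in 77.4% of the 28 d calls, beside 53.3% of all genes tested, and 67.4% were larger at 28 d with the same sign. Since genes called at 28 d were picked for large 28 d values, the last share is a description.

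Several of the strongest changes were already near their 28 d size. Obp2a changed by 5.76, Cyp17a1 by 3.74, Fkbp5 by 2.62, Oxct1 by 2.97 and Serpina6 by -2.43 at 7 d, all past the threshold. Cyp2b10 read 1423, 2233, 2033 and 2903 at 7 d and was at least 20.4-fold higher (adjusted p = 2.16e-41). Acute phase genes varied: 2 of 21 rose at 7 d, Serpina3n and Serpina3m, with a median of 0.19 over the list. Serpina3m changed by 0.94 at 7 d and 0.85 at 28 d. Saa1, Saa2 and Orm2 had 7 d changes of 0.14, -0.27 and -0.14 (adjusted p = 0.944, 0.866 and 0.956). PRED arrays at 7 d read 12670 to 16270 for Lcn2, inside the wide range of their controls, and those at 28 d read 15600 to 18580.

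The difference between the 28 d and the 7 d change was past the threshold in 161 genes (1.42%), 92 of them also called at 28 d. Among the acute phase genes these were Apcs and Saa2 (adjusted p = 0.0389 and 0.0401). The difference was not past the threshold in Lcn2, Saa3 or Orm2 (adjusted p = 0.137, 0.1405 and 0.0984). Abcc3 (-1.66 at 28 d, -0.25 at 7 d, adjusted p of the difference 0.0439), Ephx1 (-1.48 and -0.22, 0.0376) and Gpam (-0.91 and -0.13, 0.0281) changed more at 28 d. So did Timp4, which was at least 33.3-fold higher at 28 d and at least 12.4-fold higher at 7 d, where it read 3389, 654, 2777 and 443 (adjusted p of the difference 0.0355). Picked after their values were seen, Acsl1, which activates long-chain fatty acids, fell at 28 d (-1.47, adjusted p = 0.00158) and had a change of 0.60 at 7 d (adjusted p = 0.322), a difference of adjusted p = 0.022. Cyp3a11 was past the threshold as a rise at 7 d alone (1.44, adjusted p = 0.0186, difference 0.0213), and its feed controls were themselves higher at 28 d than at 7 d (1.39, adjusted p = 0.0384). The count of 161 rests on the handling of name numbers: it was 4 with the number as a random block and 3 with arrays of a number averaged. It ran from 8 to 483 when single arrays were left out, lowest without PRED 7 d array 4 and highest without PRED 7 d array 1.

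**Figure D5:**
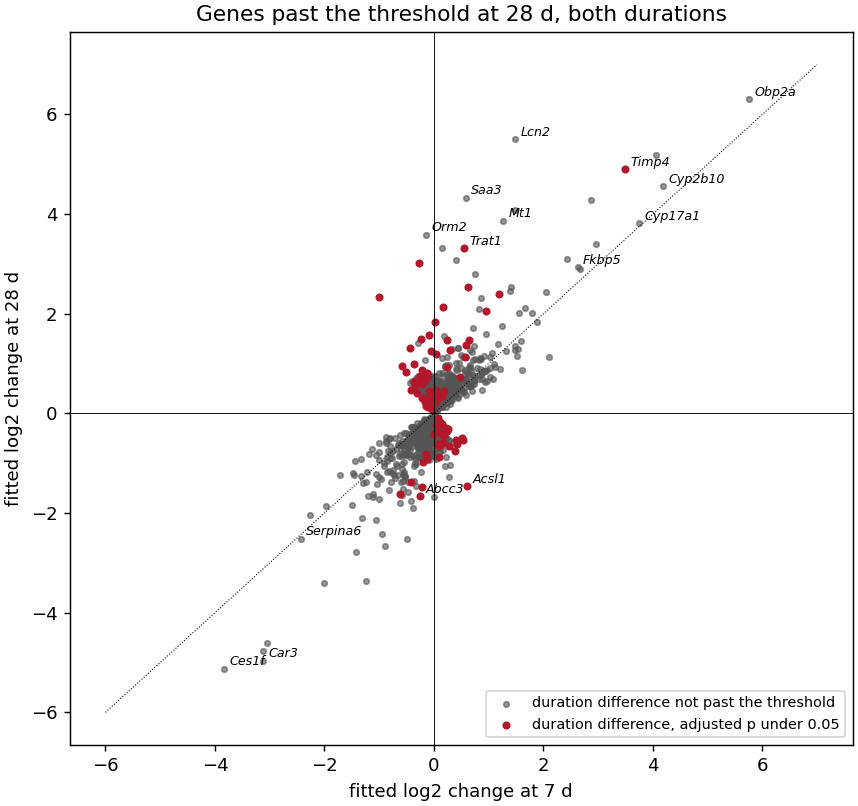
Fitted log2 change at 28 d (vertical axis) against 7 d (horizontal axis) for the 1123 genes past the threshold at 28 d; red marks the 92 whose change differed between durations, and the dotted line is equality. Obp2a, Cyp2b10, Cyp17a1 and Fkbp5 lie near the line, while Lcn2, Saa3, Orm2 and Mt1 lie far above it. In Lcn2, Saa3, Orm2 and Mt1 the difference was not past the threshold (limma adjusted p = 0.137, 0.1405, 0.0984 and 0.113).

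PRED was also set directly against EE2, a synthetic estrogen, fed for the same 28 d at another dose (10 ppm). The treated groups share their feed controls and were therefore compared with each other and not through them. Between the diets 3028 genes (26.7%) differed. Of 21 genes higher in male liver, 19 were higher with PRED than with EE2 and none lower. Moxd1 was detected on no EE2 array and was at least 47.1-fold higher with PRED (adjusted p = 3.29e-09), and Obp2a, likewise undetected with EE2, at least 118-fold (adjusted p = 3.06e-21). Cyp17a1 read 11630, 8264, 13660 and 7933 with EE2, a difference of -0.63 that was not past the threshold (SE 0.40, adjusted p = 0.253). Abcc3 read 3290, 2532, 3354 and 2328 with EE2 and the difference, PRED minus EE2, was -4.02 (SE 0.30, adjusted p = 1.28e-17). Fkbp5 was higher with PRED than with EE2 by 2.05 (SE 0.33, adjusted p = 1.17e-06).

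Within the 2 chips that held both groups, 1 array of each, 75 of the 76 named genes past the threshold had the sign of the whole comparison on both chips. Slc39a8 was the exception. The 24 largest changes were picked for groups that did not overlap, which fixed their sign on each chip beforehand. For them, and for any other named gene without overlap, the sign is therefore no test of chip. On these 2 chips Lcn2 was 6.65 and 5.79 higher, Car3 -6.06 and -4.48, Obp2a 6.87 and 5.94, each on the log2 scale. With chip as a fixed block 1017 genes were called. Of the 76 named genes past the threshold, 58 kept the call in every one of 25 other settings, as did 23 of the 24 largest changes, the exception being Orm2.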

How the data were processed

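The authors deposited normalized bead array intensity values and a detection p-value per gene entry and array, made with GenomeStudio per the submitters' processing notes. How background was corrected, values normalized and probes summed up was not given in the sources used here. All arrays held nearly the same sorted values, and the second deposited value table gave the same intensities. Depth does not apply to arrays, and their number limits the precision.

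Of 18130 entries, 11352 with a detection p-value under 0.05 on at least 4 of the 80 arrays were tested, after updating 2679 symbols through RefSeq and leaving out 8 control entries. In 341 tested genes an entry called undetected read over 2.0 times the array median on at least 1 of the 10 arrays (4.41% of undetected values). A gene undetected on every array of a group has only a bound, the higher of its own value and the lowest detected signal on each array, and is given as at least N-fold. Values were taken as log2(intensity + 16), which understates changes of low genes. limma 3.58.1 in R 4.3.3 (statmod 1.5.0 for random blocks) fitted 1 mean per group over 19 groups, with eBayes and Benjamini-Hochberg adjustment over all genes tested, called at 0.05, and the steps were tested on simulated data.

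Named genes were the 12 largest rises and 12 largest falls past the threshold whose arrays did not overlap, up to 4 members per list with the smallest adjusted p, and 9 fixed genes, 83 in all. The 35 gene lists and the arrays compared were chosen with earlier results of these data known. Alternatives covered the pseudocount (1 and 50), the filter, the arrays in the fit, chip, the number in the sample name, a further quantile normalization, the variance model, array weights, the second table and single arrays left out. Bases joining both control groups, and the fit without control arrays 1 and 2, were added after seeing the data.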

Additional observations from a re-analysis of the deposited data

Results flagged for a closer look

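For the named genes, 166 sets of 4 to 6 arrays were searched for an array far from the others of its group, by Dixon's test at the 95% level, which chance alone passes in about 1 of 20 groups. It found 16, and 10 of them were feed control array 2 at 28 d. That array was the highest control in Lcn2 (6100), Saa3 (975), Mt1 (9450), Mt2 (153) and Lbp (2100). It was the lowest control in Inmt (2990), Ces3 (4160), Acaa1b (5130), Hsd11b1 (7360) and Acly (4490). In all 10 genes it was the control nearest to the PRED arrays.

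The other 6 were scattered. PRED array 3 was the highest of its group in Hamp2 (172) and Gpam (133), and PRED array 1 the lowest in Sucnr1 (151) and Selenbp2 (4470). Feed control array 4 was the lowest in Agxt (2970), the glyoxylate-detoxifying aminotransferase, and feed control array 1 the highest in Lrat (379).

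In 6 named genes the 28 d change differed from the 7 d change by the limma test of the difference. The 28 d change exceeded the 7 d change by 1.41 in Timp4 and 1.67 in Apcs on the log2 scale. It was more negative by -0.777 in Gpam, -0.363 in Igfbp3, -1.41 in Abcc3 and -1.25 in Ephx1.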

How the results depend on the processing

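The 1123 calls at 28 d became 2595 with array weights, 685 with the name number as a random block and 530 with arrays of a number averaged, and 809 to 1315 when single arrays were left out. At 7 d, 682 became 2210, 425 and 330 in the same order, and 412 to 736. The 161 genes whose change differed between durations became 2076, 4 and 3, then 52 with chip as a fixed block, 83 without a detection filter, 347 with only the groups compared, 102 without control arrays 1 and 2, and 8 to 483 on leaving out single arrays. The 3028 genes that differed from EE2 became 4678 with array weights and 2533 to 2806 on leaving out single arrays. The cause was not tested. Both reversals were in genes not past the threshold. Per1 ran from -0.006527 (without PRED array 1) to 0.3048 on leaving out single arrays. Nr3c1 had 0.01353 with chip as a fixed block, 0.00025 with chip as a random block, 0.01668 with both control groups as the base and -0.03005 to 0.008866 on leaving out single arrays, above 0 without PRED array 1 or 3 or control array 3. Of 76 named genes past the threshold, 69 kept the call with chip as a fixed block, 64 with the number as a random block, 58 with arrays of a number averaged, 68 with both control groups and 61 without each array in turn. No paired analysis was possible because the array numbers were given in accession order. Chip, which 2 PRED arrays share with 1 control array each, served as a block instead, with 1017 calls at 28 d. Genes near background, Nr3c1, Tat and Tsc22d1 among them, are limited by signal over background.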

Other observations

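Beyond the named genes, the next largest changes were examined after their values had been seen. They were taken from genes past the threshold whose groups did not overlap. Cxcl14, a chemokine, read 1523, 1044, 913 and 1196 with PRED against 101 to 173 in control, a log2 change of 3.08 (SE 0.56, limma adjusted p = 4.44e-05), and had 0.41 at 7 d (adjusted p = 0.751). Trat1, an adaptor of T cell receptor signalling, read 1793, 888, 626 and 1519 and was detected on no control array, at least 10.96-fold higher (adjusted p = 7.81e-10), and its change at 28 d differed from that at 7 d (adjusted p = 0.0072). Nnmt, which methylates nicotinamide, read 8083, 4881, 5869 and 6252 against 885 to 2434 (2.32, SE 0.29, adjusted p = 1.24e-08). Feed controls of Nnmt were lower at 28 d than at 7 d (-1.26, adjusted p = 0.00974). Serpina5, the protein C inhibitor, read 592, 963, 1584 and 670 against 101 to 107 and was already up by 2.68 at 7 d (adjusted p = 1.89e-14). Tff3, a secreted trefoil peptide, rose by 2.80 (SE 0.45, adjusted p = 4.62e-06).

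Serpina7, which encodes thyroxine-binding globulin, fell beside the corticosteroid carrier Serpina6. It read 186, 136, 107 and 181 against 512 to 1140, a log2 change of -2.04 (SE 0.38, adjusted p = 7.07e-05) and -2.26 at 7 d. Egr1, an immediate early transcription factor, read 190, 198, 219 and 188 against 385 to 2254 (-2.10, SE 0.69, adjusted p = 0.0388). The glutathione transferase gene Gstm6 read 333, 327, 348 and 365 against 819 to 1557 (-1.83, SE 0.19, adjusted p = 6.11e-11), and the tight junction gene Cldn2 fell from 1374 to 1822 in control to 485 to 735 (-1.41, SE 0.21, adjusted p = 1.27e-06). Of 8 sulfotransferase genes 2 rose and 2 fell, beside 4.64% rises and 5.25% falls among all genes. Sult1e1, the estrogen sulfotransferase, read 169, 256, 266 and 219, was detected on no control array and was at least 2.21-fold higher (adjusted p = 1.65e-14). Sult1c2 read 116, 126, 134 and 121 against 334 to 457 (-1.54, SE 0.24, adjusted p = 1.54e-06). Lack of overlap was a condition for the next largest changes and is no result for them. Sult1e1, which came in through its family, did not overlap between the groups either.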
